A study of Bos taurus with 9 samples.

Results

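The miR-181 family was described in rectal tissue of beef steers from its 4 mature members, bta-miR-181a, bta-miR-181b, bta-miR-181c and bta-miR-181d. The members were taken by exact name from the miRNA table, and 4 of 4 were present among 515 miRNAs. Small RNA was sequenced from 9 feedlot steers, with 1 library per animal and no pooling. The 5 super-shedders (SS) had E. coli O157 in their feces at over 10000 CFU (colony-forming units) in each g, and the 4 non-shedders (NS) were pen-mates that tested negative for this bacterium. Both groups were British x Continental steers on a barley-grain finishing diet and received no experimental inoculation that the labels mention. SS were identified days before slaughter, and not all of them still shed at that level when the tissue was taken. Each library came from ground biopsies of the terminal rectum, cut 3 to 5 cm from the recto-anal junction, so the cell types of the rectal tissue were measured together.

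A miRNA guides a silencing complex to mRNAs that pair with its seed, the stretch near its 5′ end, and the members of the miR-181 family are known to share 1 seed and so many targets. The family is best known from lymphocytes. In mice, miR-181a is abundant in the thymus, where it raises the sensitivity of T-cell receptor signalling by repressing phosphatases, and it favours B-lineage cells when added to blood progenitors. For the other members, miR-181b is known to dampen NF-κB signalling in endothelial cells of mice, miR-181c has been found in mitochondria of the rat heart, and miR-181d represses the DNA repair gene MGMT in human glioma cells. In the RefSeq gene table (assembly ARS-UCD2.0) the family has 6 hairpin genes, and each stands next to another of them. MIR181A-1 neighbours MIR181B-1, MIR181A-2 neighbours MIR181B-2, and MIR181C neighbours MIR181D, so that miR-181a and miR-181b can each come from either of a pair of loci whereas miR-181c and miR-181d come from 1 locus. Reads of a mature miRNA do not tell those hairpins apart. The mature members are also known to resemble each other closely, though their identity was not computed here. How reads that match more than 1 of them were assigned is not given in the sources used here, and their split is uncertain to that extent.

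The library totals, recovered from the values, were 650726 to 6314556 reads, and were larger in SS (mean 3628452 reads) than in NS (mean 1431876 reads). Abundance is given in CPM, the reads of a miRNA scaled to a fixed library total. The smooth muscle miRNA bta-miR-143 alone took 22.1% to 73.1% of a library. Marker miRNAs of intestinal epithelium, smooth muscle and leukocytes were detected in all 9 libraries. The balance between them varied widely, with summed epithelial miRNAs at 4276 to 401685 CPM in SS and 25250 to 134093 CPM in NS, and the epithelial markers were lowest in SS steer 274. In bulk tissue, fewer cells of a type and less miRNA per cell cannot be told apart.

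The family was carried by miR-181a, which was the highest of the 4 members in 9 of 9 libraries. In the order of SS steers 274, 287, 294, 299 and 310, miR-181a was at 3817, 9636, 16433, 5003 and 2995 CPM, and in NS steers 108, 152, 165 and 242 it was at 19472, 7608, 6194 and 34385 CPM. The highest value was that of NS steer 242, and SS steers 287 and 294 lay above NS steers 152 and 165, so the groups overlapped. Its range over all libraries was 11.5-fold, and it ranked 6th to 21st in abundance among the 515 miRNAs. The member took 80.1% to 93.9% of the summed family in SS and 88.4% to 94.6% in NS.

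The partner of miR-181a at both of its loci, miR-181b, was much less abundant. It was at 212, 406, 669, 277 and 159 CPM in SS steers 274, 287, 294, 299 and 310, and at 598, 529, 319 and 1081 CPM in NS steers 108, 152, 165 and 242. The libraries that were high for miR-181a were high for miR-181b, and again the groups overlapped. Reads behind miR-181b numbered 389 to 1100 per library.

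The member miR-181c was at 633, 405, 359.9, 389 and 323 CPM in SS steers 274, 287, 294, 299 and 310, and at 924, 347, 335 and 804 CPM in NS steers 108, 152, 165 and 242. Within SS the highest library was that of steer 274, one of the lowest for miR-181a, and 4 of the 5 SS libraries stood close together. Between them, miR-181b and miR-181c changed places: miR-181c was the higher in 5 libraries and miR-181b in 4. Within a library the ratio of miR-181b over miR-181c was 0.334 to 1.86 in SS and 0.647 to 1.52 in NS. Over all libraries the mean was 472 ± 287 CPM for miR-181b and 502 ± 227 CPM for miR-181c (SD, n = 9). The 2 levels were not tested against each other. In SS steer 287 they were 1 read apart, at 1100 reads for miR-181b and 1099 reads for miR-181c.

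The neighbour of miR-181c, miR-181d, was the lowest member in 9 of 9 libraries. It was at 102, 42.1, 43.7, 106 and 84.6 CPM in SS steers 274, 287, 294, 299 and 310, and at 87.6, 119.6, 73.0 and 60.2 CPM in NS steers 108, 152, 165 and 242. NS steer 242, the highest for miR-181a, was the lowest NS library for miR-181d, and SS steers 287 and 294, the highest SS libraries for miR-181a, were the lowest for miR-181d. These values rest on 54 to 534 reads. For the fewest, the 54 reads of NS steer 242, the 95% Clopper-Pearson interval was 45.2 to 78.6 CPM, which covers counting error only.

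**Figure D1:**
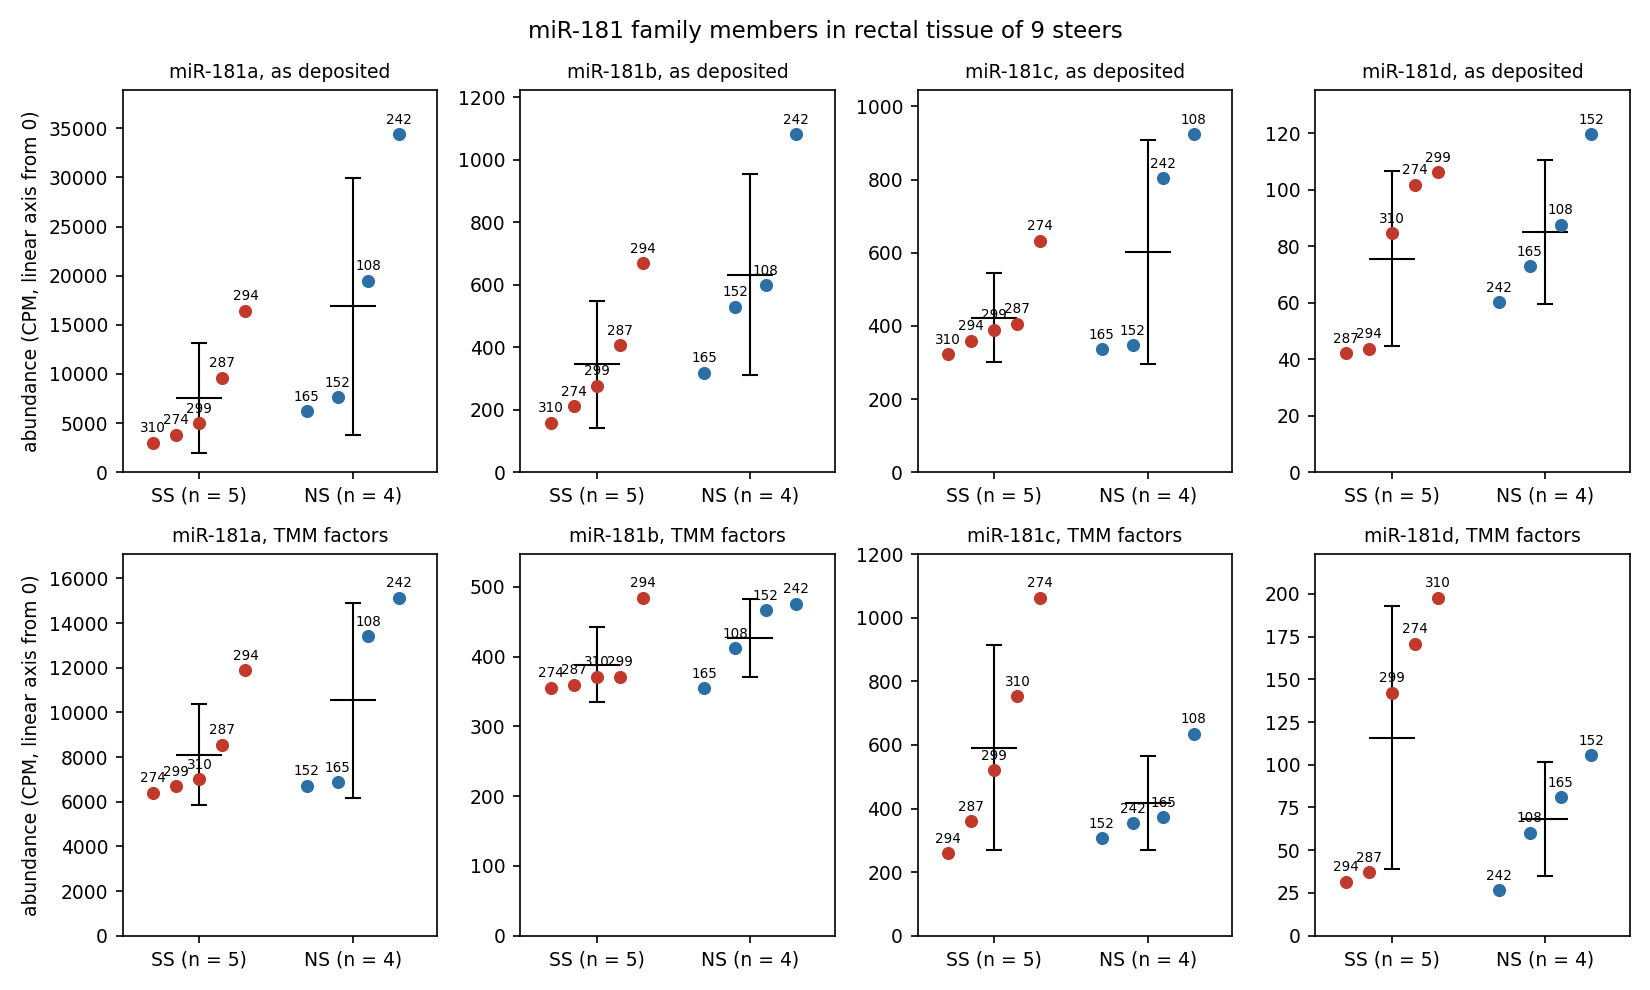
Abundance (CPM, linear axis) of the 4 members by library, SS left and NS right, with the deposited scaling in the upper row and with TMM factors in the lower row; points are libraries named by steer number, and the bar and whiskers are the mean ± SD. The groups overlap in all 8 panels, and miR-181b with TMM factors lies between 354 and 484 CPM in all 9 libraries.

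Between SS and NS, none of the 4 members passed the test. As deposited, miR-181a averaged 7577 ± 5577 CPM in SS and 16915 ± 13080.3 CPM in NS (SD, n = 5 and n = 4), a log2 difference of -1.11 (SS minus NS, 95% interval -2.50 to 0.29, limma adjusted p = 0.358). For miR-181b the means were 345 ± 204 CPM in SS and 632 ± 322 CPM in NS, a log2 difference of -0.92 (interval -2.08 to 0.23, limma adjusted p = 0.358). At the other locus miR-181c averaged 422 ± 122 CPM in SS and 603 ± 306 CPM in NS (log2 difference -0.40, interval -1.40 to 0.59, limma adjusted p = 0.579), and miR-181d 75.7 ± 31.0 CPM in SS and 85.1 ± 25.6 CPM in NS (log2 difference -0.23, interval -1.26 to 0.80, limma adjusted p = 0.749). A miRNA was called at an adjusted p under 0.1 with a log2 difference above 1 in size.

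By this rule limma called 0 of the 4 members and 0 of the 245 miRNAs tested (0%). Of the 4 members 0 were called by edgeR's quasi-likelihood test (0% of all miRNAs), 0 by its exact test (0.408% of all) and 0 by DESeq2 (3.67% of all). At an unadjusted p under 0.05 there were 0 of the 4 members in each of these tools, against 16.3% of all miRNAs in limma, 10.6% in the quasi-likelihood test, 10.2% in the exact test and 13.9% in DESeq2. Of the 40 miRNAs under that p in limma 39 were lower in SS (15.9% of the 245), a split that the scaling set, since with TMM factors 21 were under it (8.57%, with 0% called), 12 higher and 9 lower in SS. SS and NS overlapped for 4 of the 4 members, while 6.53% of all miRNAs tested had groups without overlap. All 4 members had a log2 difference below 0, as did 88.2% of the miRNAs tested, whose median was -0.70. Relative to that median miR-181a was at -0.41, miR-181b at -0.23, miR-181c at 0.29 and miR-181d at 0.46. With TMM factors (trimmed mean of M-values, which set libraries level on the bulk of their miRNAs) the median was 0.06 and 46.9% of all miRNAs were below 0. Then 2 of the 4 members were below 0, miR-181a at -0.32 and miR-181b at -0.14, and 2 above it, miR-181c at 0.38 and miR-181d at 0.55, so that the sign for miR-181c and miR-181d was set by the scaling. With the deposited scaling, miR-181a was -0.65 without NS steer 242 and -1.46 without SS steer 294.

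**Figure D2:**
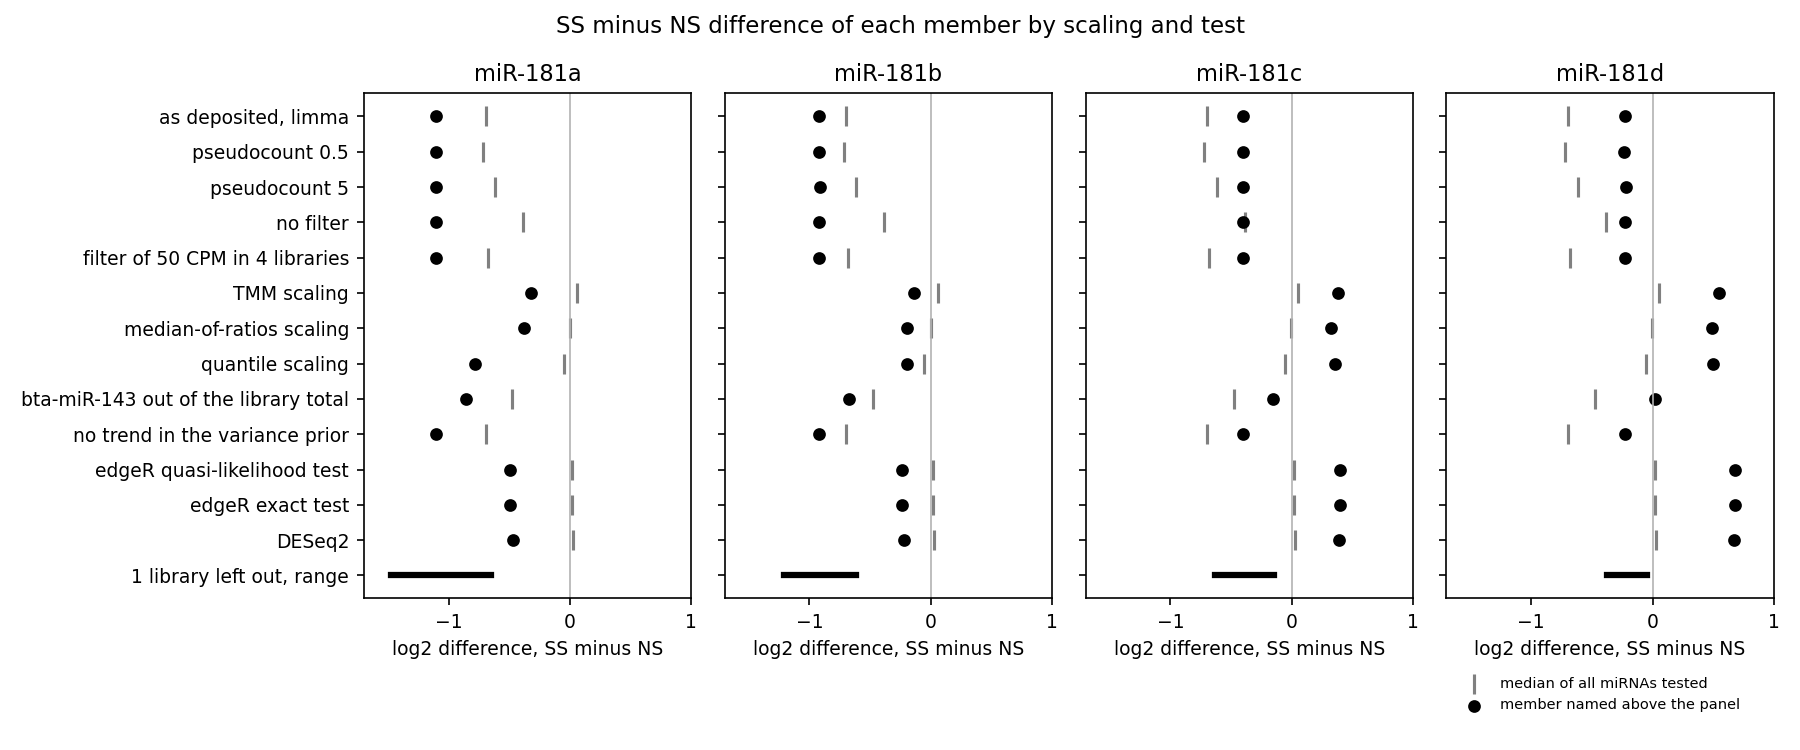
Log2 difference of each member between SS and NS (x axis, SS minus NS) under the deposited scaling and each alternative (rows); dots are the member, grey ticks the median of all miRNAs tested, and the bar in the lowest row is the range when 1 library is left out. Dots for miR-181c and miR-181d change sides of 0 with TMM, median-of-ratios and quantile scaling, edgeR and DESeq2, while those for miR-181a and miR-181b stay below 0.

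The ratio of 2 members within a library does not depend on how the library was scaled. The partners miR-181a and miR-181b had the smallest range over the 9 libraries, 2.26-fold, with a ratio of 18.0 to 24.5 in SS and 14.4 to 32.6 in NS. The neighbours miR-181c and miR-181d had a ratio of 3.66 to 9.64 in SS and 2.90 to 13.4 in NS, a 4.60-fold range. The 4 ratios between members of different loci had ranges of 5.57-fold to 16.1-fold. Within NS alone this order did not hold. There the SD of the log2 ratio was 0.57 for miR-181a over miR-181b and 1.02 for miR-181c over miR-181d. Between loci it was 0.54 for miR-181a over miR-181c and 0.55 for miR-181b over miR-181c. It was 0.95 for miR-181b over miR-181d and 1.43 for miR-181a over miR-181d. The ratio of miR-181a over miR-181c was 6.03 to 45.7 in SS and 18.5 to 42.8 in NS. That of miR-181b over miR-181c was 0.334 to 1.86 in SS and 0.647 to 1.52 in NS, and that of miR-181b over miR-181d was 1.88 to 15.3 in SS and 4.37 to 17.9 in NS.

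The widest was the ratio of miR-181a over miR-181d. It was 37.5, 229, 376, 47.1 and 35.4 in SS steers 274, 287, 294, 299 and 310, and 222, 63.6, 84.9 and 571 in NS steers 108, 152, 165 and 242, a 16.1-fold range over the 9 libraries. Libraries of both groups lay at 84.9 and below and at 222 and above, and the gap between was about as wide as the spread on either side of it. The share of the family held by miR-181c and miR-181d together was 15.4% in SS steer 274 and 2.31% in SS steer 294, and in NS it was 5.90% in steer 165 and 2.38% in steer 242.

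None of the 6 ratios passed the test between SS and NS. The log2 ratio of miR-181a over miR-181d averaged 6.44 ± 1.60 in SS, against 7.32 ± 1.43 in NS (SD, n = 5 and n = 4), a difference of -0.88 (two-sided exact permutation p = 0.413, 0.619 adjusted over the 6 ratios). The difference was -0.71 for miR-181a over miR-181c (exact permutation p = 0.310) and -0.18 for miR-181a over miR-181b (exact permutation p = 0.524). For the remaining 3 ratios the adjusted p was 0.619 or 0.738 (exact permutation). The smallest p that 5 against 4 libraries can give is 0.00794.

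**Figure D3:**
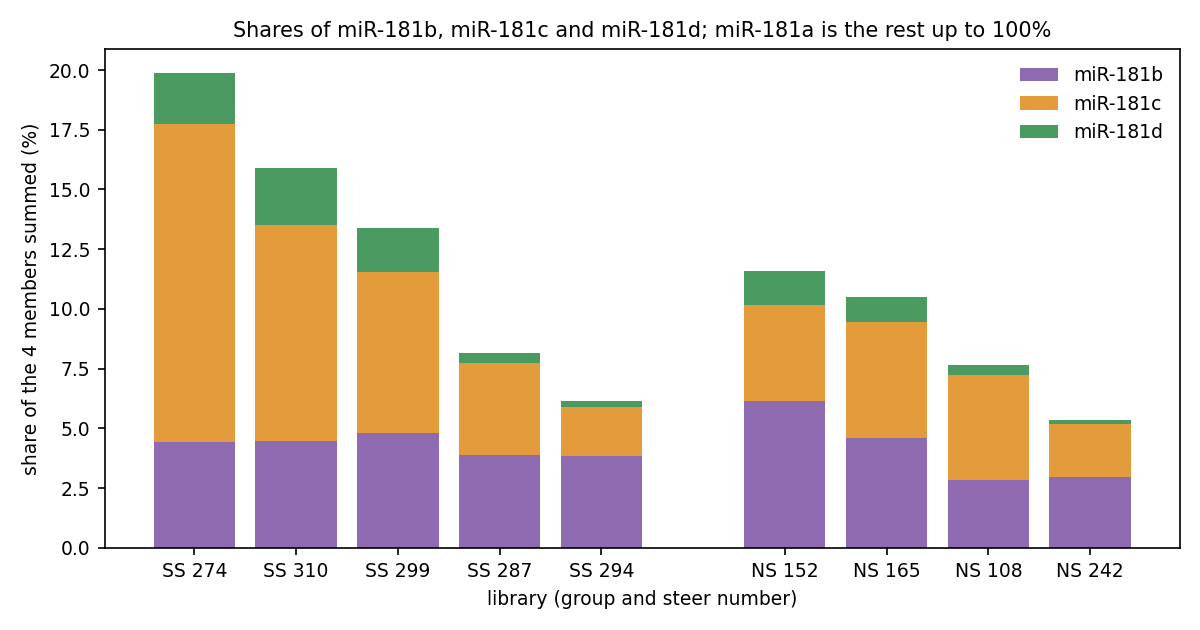
Share of the summed family (y axis, % of the CPM of the 4 members) held by miR-181b, miR-181c and miR-181d in each library, SS left and NS right, ordered within a group by the share of miR-181a, which fills the rest up to 100%. The part of miR-181c and miR-181d together is 2.31% to 15.4% in SS and 2.38% to 5.90% in NS, while that of miR-181b stays at 2.84% to 6.15% over all libraries.

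Across the 9 libraries miR-181a and miR-181b varied together, and miR-181d did not follow them. On the log2 scale Pearson's r was 0.964 between miR-181a and miR-181b (permutation p = 8.0e-05, adjusted p = 0.000480 over the 6 pairs), with Spearman's rho 0.967 (permutation p = 0.000210, adjusted p = 0.00126). Without NS steers 108 and 242, the libraries farthest from the median, r was 0.952. Both share the scaling of the library, and the median r with the 241 tested miRNAs outside the family was already 0.733 for miR-181a and 0.776 for miR-181b. With TMM factors r between miR-181a and miR-181b was 0.636 (permutation adjusted p = 0.121). With the deposited scaling the other 5 pairs did not pass. Between miR-181c and miR-181d r was 0.05 (rho -0.07, permutation p = 0.891 for r and 0.880 for rho), or 0.702 with TMM factors (permutation adjusted p = 0.115), and between miR-181a and miR-181d it was -0.493 (rho -0.433, permutation p = 0.179 for r and 0.252 for rho).

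The spread of a member between libraries depended on the scaling. With TMM factors miR-181b was at 355, 359.8, 484, 371 and 371 CPM in SS steers 274, 287, 294, 299 and 310, and at 412, 467, 354 and 475 CPM in NS steers 108, 152, 165 and 242. The SD of its log2 values was 0.19, smaller than for all but 0.816% of the 245 miRNAs tested, whereas as deposited it was 0.87 (44.1% of miRNAs below it). In contrast miR-181d, which had a small SD as deposited (0.54, with 7.35% of miRNAs below it), had an SD of 1.07 with TMM factors (77.6% below it). It was then at 171, 37.3, 31.6, 142.2 and 198 CPM in SS steers 274, 287, 294, 299 and 310, and at 60.3, 105.5, 81.1 and 26.5 CPM in NS steers 108, 152, 165 and 242. The SS libraries thus held both the 3 highest values and 2 of the 3 lowest.

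Among all other tested miRNAs, those most like each member across libraries came from different sets. Likeness was Pearson's r of the log2 values over the 9 libraries, a description given with no test, and since all miRNAs of a library share its scaling the median r over the other 241 miRNAs is given as well. For miR-181a (median r 0.733) the nearest were bta-miR-769 (r = 0.965), bta-miR-363 (r = 0.964), a member of a miR-17-92 paralog cluster, and bta-miR-2484 (r = 0.963). For miR-181b (median r 0.776) they were bta-miR-15a (r = 0.976), a repressor of the apoptosis inhibitor BCL2 in human B-cell leukemia, bta-miR-93 (r = 0.976) of the miR-106b-25 cluster, and bta-miR-150 (r = 0.972), a miRNA of mature lymphocytes.

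For miR-181c (median r 0.375) the nearest were bta-miR-27b (r = 0.876), bta-miR-369-5p (r = 0.812) of the imprinted DLK1-DIO3 cluster, and bta-miR-23a (r = 0.812). For miR-181d the median r was -0.34, and the nearest were bta-miR-143 (r = 0.816), the leading miRNA of smooth muscle, bta-miR-379 (r = 0.802) of the DLK1-DIO3 cluster, and the muscle miRNA bta-miR-133a (r = 0.777). With TMM factors bta-miR-143 was again the first for miR-181d (r = 0.965) and bta-miR-379 the second (r = 0.957). By contrast, bta-miR-93 dropped to 51st for miR-181b and bta-miR-369-5p to 37th for miR-181c. For miR-181a, bta-miR-769 was then 8th, bta-miR-363 2nd and bta-miR-2484 4th. For miR-181b, bta-miR-15a was 6th and bta-miR-150 5th, and for miR-181c, bta-miR-27b was 11th and bta-miR-23a 4th. The level of bta-miR-369-5p was low, with means of 4.59 CPM in SS and 12.2 CPM in NS, and its rho with miR-181c was 0.517 as deposited. Also low was bta-miR-2484, with means of 5.16 CPM in SS and 11.5 CPM in NS.

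Levels of cell type markers were set beside those of the members. With the deposited scaling only the leukocyte list passed the correlation test, for miR-181a and miR-181b. All 8 leukocyte miRNAs were tested and 0 were called (0% of all miRNAs). At an unadjusted limma p under 0.05 there were 2 of the 8, against 16.3% of all miRNAs. A log2 difference below 0 was found for 7 of the 8, a share near the 88.2% of all miRNAs, and the median was -1.13. With TMM factors 5 of the 8 were below 0, against 46.9% of all miRNAs. Summed, they were at 939.6, 9720.4, 20359, 2751 and 691 CPM in SS steers 274, 287, 294, 299 and 310, and at 6182, 4258, 3799.8 and 44745 CPM in NS steers 108, 152, 165 and 242. None of the 8 was at 0 in any library. The libraries high for leukocyte miRNAs were those high for miR-181a and miR-181b.

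As deposited, the median r with single miRNAs outside the family was 0.733 for miR-181a and 0.776 for miR-181b. The permutation p-values below are against no correlation, not against those medians. The correlation with the mean log2 level of the leukocyte list was 0.928 for miR-181a (rho 0.95, permutation adjusted p = 0.00186 for r and 0.00222 for rho, over 12 relations) and 0.947 for miR-181b (rho 0.95, permutation adjusted p = 0.00168 and 0.00222). Without SS steer 310 and NS steer 242 r was 0.840 and 0.867, with a permutation adjusted p of 0.0917 for each over 7 libraries, which misses the 0.05 used for correlations. With TMM factors r was 0.715 and 0.651 (permutation adjusted p = 0.0595 and 0.0968). For miR-181c r was 0.295 with the leukocyte list and for miR-181d -0.616 (rho 0.467 and -0.583, permutation adjusted p = 0.482 and 0.158 for r). With TMM factors these became -0.822 for miR-181c (permutation adjusted p = 0.0203) and -0.936 for miR-181d (permutation adjusted p = 0.00264).

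The 6 smooth muscle miRNAs, of which 5 had a log2 difference above 0 (29 of the 245 miRNAs did) and 0 were called, summed to 222069 to 736839 CPM in SS and 306219 to 627891 CPM in NS. Their list had r = 0.680 with miR-181d and -0.727 with miR-181b (rho 0.467 and -0.700, permutation adjusted p = 0.125 and 0.102 for r). Without SS steer 294 and NS steer 242 these were 0.383 and -0.557 (permutation adjusted p = 0.587 and 0.558). With TMM factors the list had r = 0.917 with miR-181d, 0.839 with miR-181c, -0.818 with miR-181b and -0.757 with miR-181a (permutation adjusted p = 0.00378, 0.0197, 0.0203 and 0.0491). Members and lists share the TMM factor of a library as well, and the TMM values were not computed with libraries left out. With the 9 epithelial miRNAs no member passed under either scaling. Their part in the levels of the family was not tested.

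The ratio of miR-181a over miR-181d, the widest of the ratios, was set beside the same lists after its values had been seen. The adjustment over 5 relations does not cover that choice, and miR-181a alone already varied with the leukocyte list. The relations that follow therefore only describe these libraries. The ratio was lowest in SS steers 310 and 274, where the leukocyte miRNAs summed lowest. Its highest values were in NS steer 242 and SS steer 294, where they summed highest. Pearson's r of the log2 ratio with the leukocyte list was 0.938 (rho 0.983, permutation adjusted p = 0.000250 for r and 0.000400 for rho, over 5 relations), and without SS steer 310 and NS steer 242 it was 0.904. With the leukocyte list minus the smooth muscle list, a measure that also does not depend on library scaling, r was 0.914 (rho 0.917, permutation adjusted p = 0.000975 and 0.00332), and 0.801 without SS steer 294 and NS steer 242 (permutation adjusted p = 0.0691). With the smooth muscle list r was -0.756 (rho -0.717, permutation adjusted p = 0.0191 and 0.0451), which without those 2 libraries was -0.468. The intestinal epithelium list had r = 0.455 (rho 0.567, permutation adjusted p = 0.219 and 0.121).

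The library total moved with the ratio as well, with r = -0.795 on the log2 scale (rho -0.800, permutation adjusted p = 0.0191 and 0.0234), and -0.824 without SS steer 310 and NS steer 108. That total was recovered from the deposited values and may not count every read sequenced. Library total, leukocyte markers and muscle markers varied together over these libraries, and their parts in the ratio cannot be told apart with 9 animals. Within a group there are 5 or 4 libraries, too few for a correlation.

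**Figure D4:**
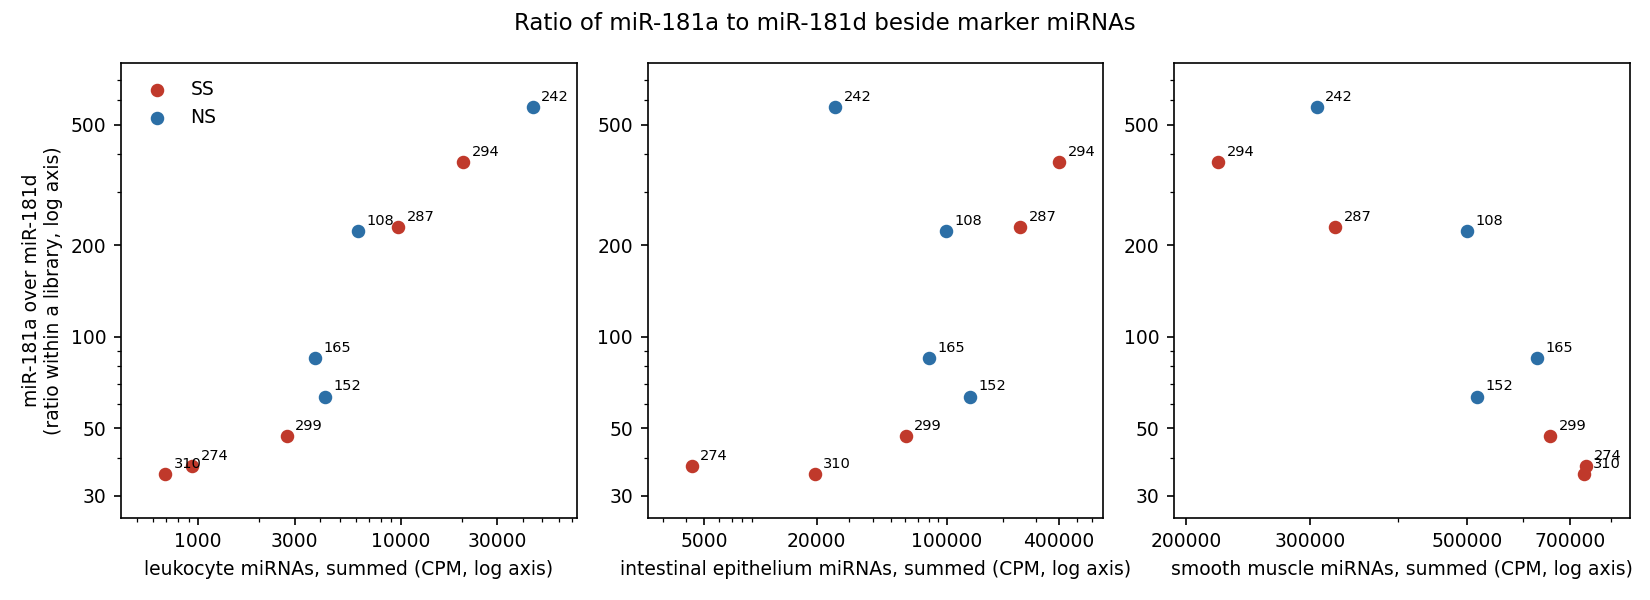
Ratio of miR-181a to miR-181d within each library (y axis, log) against the summed CPM of leukocyte, intestinal epithelial and smooth muscle miRNAs (x axes, log); points are libraries of SS and NS named by steer number. The ratio is 35.4 in SS steer 310, where leukocyte miRNAs sum to 691 CPM, and 571 in NS steer 242, where they sum to 44745 CPM.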

How the data were processed

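Small RNA libraries of rectal tissue from 5 SS and 4 NS, grouped by sample title, were made with a TruSeq small RNA kit, and the authors assigned the reads to miRBase sequences with sRNA toolbox (Bowtie is named in the submitters' processing notes, and their versions are not stated). The values deposited by the authors, called CPM or RPM, are recorded as a read-based signal, since the columns sum to 1024945 to 1089433. Whole reads were recovered within 1e-06 reads for 100% of values, which gave the library totals. The column sums exceed those totals by 2.49% to 8.94%, and whether reads stand under more than 1 miRNA was not tested. All 9 columns were used (0 left out).

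A miRNA was tested at 5 CPM or more in at least 4 libraries (245 tested, 270 under the filter). SS and NS were compared on log2(CPM + 1) with limma 3.58.1 (R 4.3.3, trended prior, Benjamini-Hochberg adjustment over all tested, with the cut-offs given in the authors' methods); a log2 difference on this scale understates changes of low miRNAs. Count tests on the recovered reads served as alternatives. These were edgeR 4.0.16, a tool that the authors also used, and DESeq2 1.42.0, which their methods do not name. Ratios were compared by a two-sided exact permutation test, and correlations by 100000 permutations (scipy 1.17.1), both read at an adjusted p of 0.05. Scripts were tested on simulated data. Named were the 4 members, the 3 miRNAs most like each, and marker lists; members and lists were chosen with earlier results of these data known. P-values cover the spread between these animals only. No member sequence is printed, as none was in the files used here.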

Additional observations from a re-analysis of the deposited data

Results flagged for a closer look

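One library stood far from the rest of its group, out of 22 sets of values looked at, and chance alone marks about 1 set in 20. This was SS steer 274, with 633 CPM of bta-miR-181c, where the remaining SS libraries had 323 to 405 CPM. With TMM factors it had 1063 CPM, against 260.2 to 754 CPM in the remaining SS libraries, and no longer stood apart by the same measure. SS steer 274 also held the lowest summed epithelial miRNAs (4276 CPM) and the highest share of bta-miR-143 (73.1%), and their part in this value was not tested.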

How the results depend on the processing

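No paired analysis was made, because the sample labels give no pen or other match between SS and NS steers. In all, 217 results under alternatives were computed, and 178 kept their direction and their side of the threshold. None of the 4 members was called under any of 21 alternatives (adjusted p 0.212 to 0.789 for miR-181a). The log2 difference turned for miR-181c and miR-181d with TMM (0.38 and 0.55), median-of-ratios (0.33 and 0.49) and quantile scaling (0.36 and 0.50), edgeR's quasi-likelihood test (0.40 and 0.68), edgeR's exact test (0.40 and 0.68) and DESeq2 (0.39 and 0.67), and for miR-181d with bta-miR-143 taken out of the library total (0.0210). With 1 library left out the log2 differences were -1.48 to -0.65 for miR-181a, -1.21 to -0.62 for miR-181b, -0.63 to -0.15 for miR-181c and -0.38 to -0.05 for miR-181d. Without SS steer 294, miR-181a and miR-181b reached an unadjusted limma p of 0.0323 and 0.0351. In that setting 56 of the 245 miRNAs tested were under 0.05, and all 56 were lower in SS. Without bta-miR-143 in the total miR-181b reached an unadjusted limma p of 0.0377, and 40 of the 245 miRNAs were then under 0.05 (38 lower in SS). Over all miRNAs, limma called 1 of 515 with no filter, against 0 of 245 with it, and edgeR's exact test called 1 and DESeq2 9 of the 245.

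The SS minus NS difference in the log2 ratio of miR-181c over miR-181d was -0.17 with all libraries and -0.56 to 0.17 with 1 left out. That difference turned to 0.05 without NS steer 108 and to 0.17 without NS steer 242. With TMM factors the correlation was 0.636 for miR-181a with miR-181b, -0.333 for miR-181a with miR-181c and -0.611 for miR-181b with miR-181c. With the leukocyte list it was then 0.715 for miR-181a, 0.651 for miR-181b, -0.822 for miR-181c and -0.936 for miR-181d, with the epithelial list -0.0609 for miR-181a, and with the smooth muscle list -0.757, -0.818, 0.839 and 0.917 for miR-181a, miR-181b, miR-181c and miR-181d. Without the 2 libraries farthest from the median, miR-181a with miR-181c was -0.229, the leukocyte list had 0.840 with miR-181a, 0.867 with miR-181b and -0.263 with miR-181c, and the epithelial list -0.301 with miR-181a and -0.280 with miR-181b. In the same setting the ratio of miR-181a over miR-181d, examined after seeing the data, had -0.121 with the epithelial list, -0.468 with the smooth muscle list and 0.801 with leukocyte minus smooth muscle. The cause of these changes was not tested. Low read counts limit miR-181d most, at 54 to 65 reads in 3 libraries.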
